A study of Homo sapiens with 22 samples.

Results

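The genes that encode the subunits of the transcription factor AP-1 were examined for binding of AP-1 itself and of the pioneer factor FOXA2 in prostate cancer cell lines. The 10 members were JUN, JUNB, JUND, FOS, FOSB, FOSL1, FOSL2, ATF3, BATF3 and MAFF, of 19794 protein-coding genes in the GENCODE annotation of the hg19 build. They were chosen as genes of the AP-1 and related basic leucine zipper family, and every deposited region within 50 kb of one of their gene bodies was taken as belonging to its locus, which gave 843 of 871377 regions in 22 lists. AP-1 is a dimer of a JUN protein with a FOS, ATF or MAF family partner, and it binds the word TGACTCA or its reverse complement TGAGTCA. JUN, FOS and ATF3 are classic immediate-early genes, switched on within minutes by growth factors and stress, and the JUN promoter is a textbook case of a gene bound by its own product. The question the comparisons address is whether JUN and FOSL1 sit at the genes that encode AP-1, in which lines, and what happens there when FOXA2, FOXA1 or the demethylase LSD1 is targeted.

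The lines were PC3, an androgen receptor-negative line, NCI-H660, a neuroendocrine prostate cancer line, and LNCaP, an androgen receptor-positive luminal line. JUN was mapped by ChIP-seq, which sequences the DNA recovered with an antibody, in PC3 and NCI-H660 cells given a control siRNA (siNC) or an siRNA against FOXA2 (siFOXA2), and in LNCaP cells given siNC or an siRNA against the related factor FOXA1 (siFOXA1). JUN was also mapped in vehicle-treated LNCaP cells that stably overexpress FOXA2 from a lentivirus (FOXA2OE) and in those titled FOXA2K265R, in which lysine 265 of FOXA2 is changed, although another label of the latter names the FOXA2OE line. FOSL1 was mapped in PC3 cells under siNC and siFOXA2. FOXA2 was mapped in PC3 cells under vehicle, the LSD1 inhibitor ORY-1001 (10 µM, 4 h) or the LSD1 inhibitor C12 (0.5 µM, 4 h), in NCI-H660 cells under vehicle or ORY-1001 (10 µM, 4 h), in vehicle-treated FOXA2OE cells, and in 2 further vehicle-treated PC3 samples (the other FOXA2 ChIPs), for which the labels name no antibody. ATAC-seq, which marks accessible chromatin, was available for vehicle-treated PC3 and NCI-H660 cells. The active histone mark H3K27ac was mapped in vehicle-treated PC3 cells and H3K4me2 in vehicle-treated NCI-H660 cells. None of these was mapped in siRNA-treated cells.

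Each condition was represented by 1 list of regions, except for the other FOXA2 ChIPs, so no difference between conditions could be tested and no p-value is given. Intervals on shares are 95% Wilson intervals and cover counting error only. The lists hold no read totals, so the depth is unknown, and they differ widely in length, from 1538 to 77822 regions among the factor lists, with exactly 2500 unscored regions for FOXA2 in FOXA2OE cells, which may be a selection from a longer list. None of these 2500 lay at an AP-1 locus, and that absence is read no further. Knockdown of FOXA2 or FOXA1 cannot be checked from region lists. All lists of a knockdown or inhibitor contrast came from 1 processing folder, as read from the region names, but the PC3, FOXA2OE and FOXA2K265R JUN lists came from folders other than that of the NCI-H660 and LNCaP knockdown lists, so that line and folder cannot be told apart. Promoters of the defining markers fixed for the lines (neuroendocrine, luminal and mesenchymal genes) were accessible in nearly the same numbers in PC3 and NCI-H660, 5 and 6 of 6, 3 and 3 of 4, and 4 and 4 of 4. Accessibility of these markers therefore did not separate the lines.

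The sequences at the places on which the results turn are shown first, read from the hg19 reference, because they carry the words that AP-1, the cyclic AMP response element (CRE) binding factors and forkhead factors recognise. Capitals mark AP-1 words (TGACTCA and its reverse complement), CRE words (TGACGTCA), the AP-1-like word known from the JUN promoter (TGACATCA, reverse complement TGATGTCA) and forkhead words (TATTTAC as well as the word TGTTTAC, where the last A may be G and the last C may be T), searched on both strands. The first 3 are promoters bound by JUN in 7 or 8 of its 8 lists, written on the strand of the gene. Next come the upstream places of ATF3 and FOSB that were in all 8 JUN lists and the strongest PC3 JUN place at FOSL1. The last 2 are FOXA2 places, and the last 5 sequences are on the plus strand.
JUN promoter, chr1:59249721-59249949, minus strand: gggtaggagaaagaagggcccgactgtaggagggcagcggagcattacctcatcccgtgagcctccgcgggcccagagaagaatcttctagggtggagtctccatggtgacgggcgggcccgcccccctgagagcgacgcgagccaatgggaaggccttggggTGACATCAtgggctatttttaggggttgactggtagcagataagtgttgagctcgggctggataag
JUND promoter, chr19:18392433-18392652, minus strand: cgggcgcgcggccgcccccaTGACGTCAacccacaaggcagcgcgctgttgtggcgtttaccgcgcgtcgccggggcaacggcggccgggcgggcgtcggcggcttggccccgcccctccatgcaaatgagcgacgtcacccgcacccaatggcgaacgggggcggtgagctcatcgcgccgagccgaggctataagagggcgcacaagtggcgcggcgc
FOSL2 promoter, chr2:28615605-28615745, plus strand: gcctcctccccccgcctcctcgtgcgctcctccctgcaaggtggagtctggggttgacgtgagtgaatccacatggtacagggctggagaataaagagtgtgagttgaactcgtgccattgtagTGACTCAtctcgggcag
ATF3 upstream JUN place, chr1:212732326-212732476: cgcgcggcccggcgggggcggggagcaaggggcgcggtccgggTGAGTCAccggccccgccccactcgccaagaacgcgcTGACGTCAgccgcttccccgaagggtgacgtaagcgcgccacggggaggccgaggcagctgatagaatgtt
FOSB upstream JUN place, chr19:45959133-45959283: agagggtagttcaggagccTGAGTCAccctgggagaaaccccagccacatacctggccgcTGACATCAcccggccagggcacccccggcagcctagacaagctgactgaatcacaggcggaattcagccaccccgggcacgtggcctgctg
FOSL1 upstream JUN place, chr11:65683273-65683423: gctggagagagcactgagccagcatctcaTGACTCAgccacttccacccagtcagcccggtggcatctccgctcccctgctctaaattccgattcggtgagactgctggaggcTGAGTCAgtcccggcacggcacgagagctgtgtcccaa
JUN upstream FOXA2 place, chr1:59280941-59281091: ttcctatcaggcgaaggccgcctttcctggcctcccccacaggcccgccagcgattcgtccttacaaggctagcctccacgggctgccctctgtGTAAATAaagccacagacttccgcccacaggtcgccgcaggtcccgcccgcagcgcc
JUNB promoter FOXA2 place, chr19:12902058-12902208: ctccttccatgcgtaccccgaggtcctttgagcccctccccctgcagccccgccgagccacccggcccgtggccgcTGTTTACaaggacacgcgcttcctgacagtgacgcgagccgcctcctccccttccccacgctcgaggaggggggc

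The JUN sequence held TGACATCA once, at chr1:59249779-59249786, inside the merged JUN place there. In the window from 250 bases before to 50 after the start, this word occurred in 2.13% of 19515 promoters and in 1 of the 10 members, JUN. The CRE word occurred in 2.71% of promoters and in 2 members, JUND and MAFF. The AP-1 word occurred in 3.55% of promoters and in 2 members, FOSL1 and FOSL2, where it lay just after the FOSL2 start, at chr2:28615729-28615735. The ATF3 promoter held none of these words in that window, which says only that these letters are not there. The upstream ATF3 place held an AP-1 word and a CRE word, and the upstream FOSB place an AP-1 word and TGACATCA.

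Regions of all factors fell on 112 separate places at the 10 loci. JUN was found at 76 of them in at least 1 list, FOXA2 at 54, and FOSL1 at 9. JUN and FOXA2 shared 20 places across all lines and conditions, and all 3 factors shared 2. No place was in 17 or more of the 22 lists, and the most lists at a place was 14, at the ATF3 and JUND promoters. At the other end, 47 places were in only 1 factor list, of which 20 were in the NCI-H660 siFOXA2 JUN list. The nearest gene start was that of a member for 77 of the 112 places. Counted by the main transcript of each gene, the windows of JUN, FOS and FOSL2 held no other protein-coding gene. Those of FOSL1 and JUNB held 10 and 8, so a region there need not belong to the member. Other transcripts were not counted, such as those of PDE4C that start in the JUND window. The windows of ATF3 and BATF3 overlap, and regions in the shared stretch count for both.

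**Figure D1:**
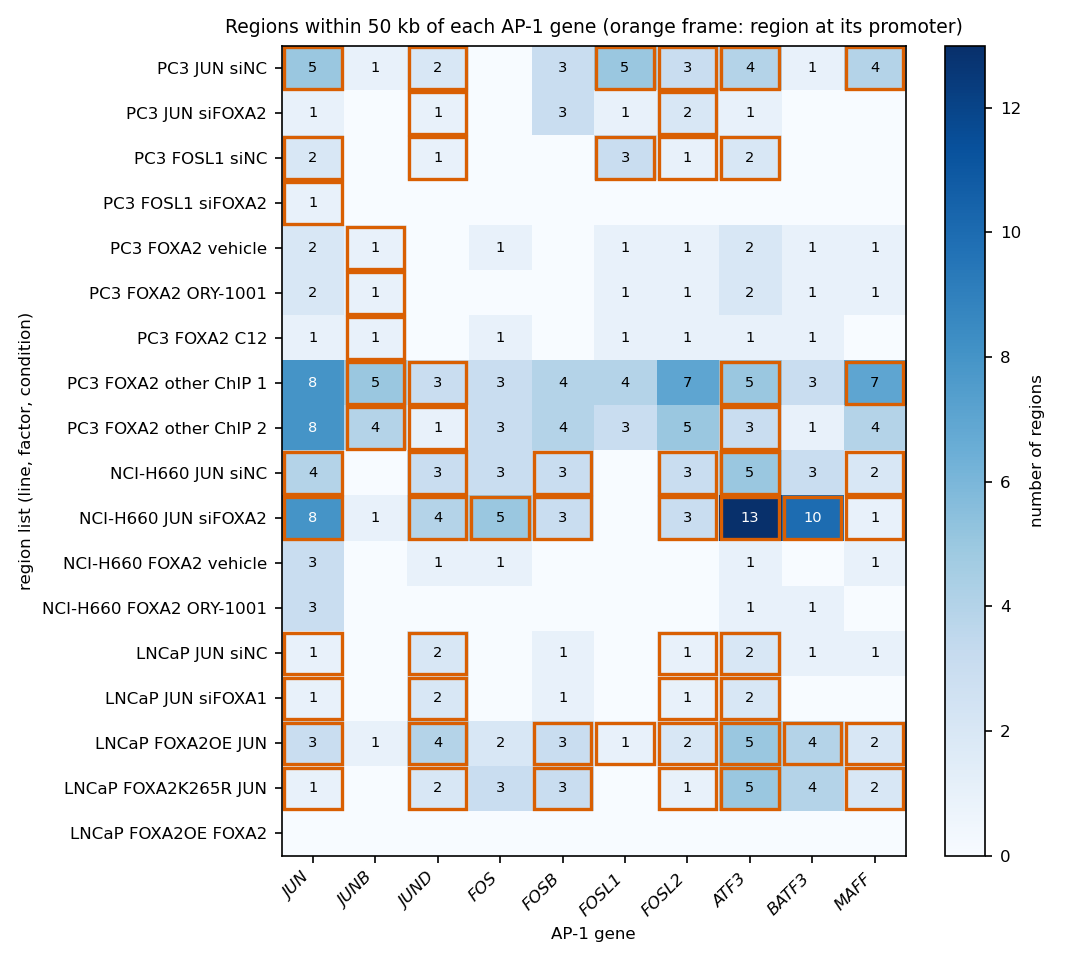
Number of regions within 50 kb of each AP-1 gene (columns) in each of the 18 factor lists (rows), with darker blue for more regions, blank for none, and an orange frame where at least 1 region lay at the gene's own promoter. JUN, JUND, FOSL2 and ATF3 carry frames in nearly every JUN list, JUNB carries them only in FOXA2 lists, and the highest count is 13, for ATF3 in the NCI-H660 siFOXA2 JUN list.

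In PC3 cells under siNC, JUN lay within 50 kb of 9 members, all but FOS, in 28 regions. Over all protein-coding genes, 62.8% had a PC3 JUN region that near, so proximity by itself says little about these genes. Promoters, taken as 1 kb on either side of a protein-coding transcript start, set the members apart more. JUN lay at the promoters of 6 members, JUN, JUND, FOSL1, FOSL2, ATF3 and MAFF, against 10.7% of all coding genes. All 10 members had an accessible promoter in PC3, and among the 15369 coding genes with one, 13.8% had a JUN region, a comparison added after the values were seen. Of the 28 regions, 10 lay at a promoter of some coding gene, compared with 8.44% of the whole list. Each window was drawn around a gene and so holds a promoter, which by itself can raise this share. All 28 overlapped accessible chromatin and 27 H3K27ac, against 96.0% and 77.3% of the list.

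In NCI-H660 cells under siNC, JUN had 24 regions at 8 members, all but JUNB and FOSL1, with 66.3% of coding genes that near to a region. It lay at 6 member promoters, those of JUN, JUND, FOSB, FOSL2, ATF3 and MAFF, against 22.7% of coding genes, or 30.3% of the 14794 with an accessible promoter. In LNCaP cells under siNC the JUN list was short, at 2421 regions, and 9 of them lay at 7 members, with 13.4% of coding genes that near. Member promoters with JUN numbered 4, those of JUN, JUND, FOSL2 and ATF3, against 1.38% of coding genes. The same 4 promoters thus carried JUN in all 3 lines under siNC. All 9 LNCaP regions overlapped a PC3 JUN region and 7 an NCI-H660 one, compared with 61.6% and 55.7% of the LNCaP list. From the side of NCI-H660, 12 of its 24 regions were shared with PC3, against 16.5% of its list.

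Over the 8 JUN lists, 65 coding genes (0.328%) had JUN at a promoter in at least 7, and 4 of them were members: JUND and FOSL2 in all 8, and JUN and ATF3 in 7. Only 20 coding genes had JUN at a promoter in all 8 lists. These lists share cell lines, so this is a count of lists and not of independent repeats. They also differ in content. An AP-1 word lay near the centre of 2.38% of the FOXA2OE, 4.09% of the FOXA2K265R and 4.99% of the NCI-H660 siFOXA2 regions. In the other JUN lists the share ran from 13.8% to 49.5%. MAFF followed with 5 lists, FOSB with 4, FOSL1 and BATF3 with 2, FOS with 1 and JUNB with none.

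At the JUN promoter the region scored 300 in PC3 under siNC and was absent under siFOXA2. The score is a whole number that the peak caller gave each region, higher for stronger enrichment over background. It also moves with the depth of the library, which is unknown, so scores of different lists are set side by side as values and order is read only within a list. JUN at its own promoter scored 5419 and 4677 in NCI-H660 under siNC and siFOXA2, 527 in LNCaP under siFOXA1, 373 in FOXA2OE and 2035 in FOXA2K265R cells, and the LNCaP siNC list had a region but no scores. By rank it was 15th of 18401 regions in NCI-H660 under siNC and 7th of 59452 under siFOXA2, and 4888th of 23890 in PC3. The strongest JUN promoter signal by rank was therefore that of the neuroendocrine line, and PC3 was the only line in which the region was missing from a list.

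JUND, which encodes the JUN protein that most cells make without stimulation, carried JUN at chr19:18392311-18392949 in all 8 lists. It scored 262 and 83 in PC3 under siNC and siFOXA2, 3299 and 3388 in NCI-H660, 245 in LNCaP under siFOXA1, 995 in FOXA2OE and 1811 in FOXA2K265R. In NCI-H660 it ranked 31st and 16th in its list, and in FOXA2OE 64th, the highest of any AP-1 region there. FOSL2, a FOS family gene, carried JUN at chr2:28615475-28615902, with scores of 458 and 194 in PC3, 688 and 493 in NCI-H660, 140 in LNCaP under siFOXA1, 245 in FOXA2OE and 915 in FOXA2K265R. Of the 2 member promoters left in PC3 under siFOXA2 it had the higher score, above 80.1% of that list. ATF3, a stress-induced gene, carried JUN at chr1:212781562-212782253, with 321 in PC3 under siNC, none under siFOXA2, 2011 and 1683 in NCI-H660, 129 in LNCaP under siFOXA1, 418 in FOXA2OE and 1398 in FOXA2K265R. Like JUN, it ranked among the top 72 and 53 regions of the NCI-H660 lists and was missing after siFOXA2 in PC3.

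The remaining promoters were bound in fewer lists. MAFF, which encodes a small MAF protein without an activation domain of its own, scored 268 in PC3 under siNC, none under siFOXA2, 492 and 232 in NCI-H660, 216 in FOXA2OE and 415 in FOXA2K265R. FOSB had no promoter region in PC3 or in LNCaP under siNC or siFOXA1, but scored 217 and 90 in NCI-H660, 128 in FOXA2OE and 67 in FOXA2K265R. FOSL1 carried JUN in PC3 under siNC at 2 places near its start, with scores of 546 and 116, and otherwise only in FOXA2OE cells, with 67. FOS, the founding FOS gene, had a promoter region only in NCI-H660 under siFOXA2, with a score of 22, above 12.4% of that list. BATF3, whose product lacks an activation domain and dimerises with JUN proteins, had weak ones there (up to 36) and in FOXA2OE cells (78). No JUN list had a region at the JUNB promoter, although that promoter was accessible in both lines, and the only PC3 JUN region at the JUNB locus scored 72, at 8.54 kb upstream near HOOK2.

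**Figure D2:**
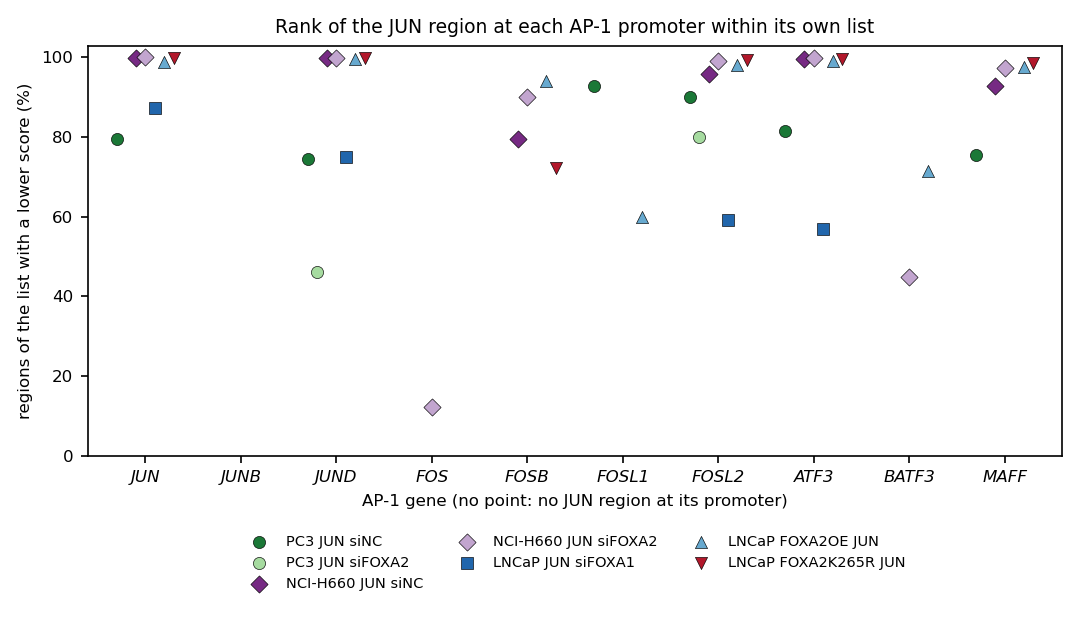
Within-list rank of the JUN region at each AP-1 promoter, as the percent of the list's regions with a lower score (vertical axis), for each gene (horizontal axis) and each of the 7 JUN lists with scores (symbols). JUN, JUND and ATF3 sit above 99% in both NCI-H660 lists and in FOXA2K265R cells, and between 74.6% and 81.6% in PC3 under siNC, while JUNB has no point.

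At 4 places JUN was in all 8 lists, against 135 regions of the whole PC3 siNC list (0.565%), 133 of the NCI-H660 siNC list (0.723%) and 130 of the LNCaP siNC list (5.37%). Besides the JUND and FOSL2 promoters these were both intergenic. The first, chr1:212732153-212732648, lay 49.7 kb upstream of the main ATF3 start and 6.28 kb upstream of the first annotated ATF3 start. Its scores were 720 and 187 in PC3, 1997 and 1728 in NCI-H660, 167 in LNCaP under siFOXA1, 825 in FOXA2OE and 1490 in FOXA2K265R, and FOSL1 was there as well under siNC (113). The second, chr19:45958992-45959423, lay 12 kb upstream of FOSB. Its scores were 847 and 234 in PC3, 674 and 484 in NCI-H660, 135 in LNCaP under siFOXA1, 325 in FOXA2OE and 1341 in FOXA2K265R. FOSB thus had a JUN place in every list although its promoter was bound in only 4.

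FOS and BATF3 had JUN mainly away from their promoters. At FOS, NCI-H660 JUN lay 19.7 kb upstream (650 under siNC and 450 under siFOXA2), 1.62 kb upstream (156 and 100) and 15.4 kb downstream of the start (107 and 19). PC3 had no JUN region at FOS in either list, although its ATAC list had regions at all 3 places, and the first was also in FOXA2OE (128) and FOXA2K265R (204) cells. At BATF3 the strongest NCI-H660 place lay 28.2 kb downstream of the start (315 and 127), and the only PC3 place 21.8 kb upstream (230 and none).

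AP-1 words lay within 100 bp of the centre in 16 of the 28 PC3 JUN regions under siNC, against 49.5% of the list, and in 7 of the 24 NCI-H660 regions, against 13.8%. The CRE word lay in 3 of 28, against 0.67%, and in 5 of 24, against 3.15%. In LNCaP under siNC 6 of 9 regions held an AP-1 word, against 25.4%, and 2 the CRE word, against 4.58%. Forkhead words lay in 8 of 28, 4 of 24 and 2 of 9, against 43.5%, 28.4% and 36.6%.

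The FOSL1 locus was bound by JUN in PC3 and hardly elsewhere. Under siNC the PC3 list held 5 regions there: 1844 at 15.5 kb upstream, 871 at 11.3 kb upstream, 190 at 2.95 kb upstream and the 2 promoter regions already given. The first of these was the highest-scoring JUN region at any AP-1 locus in PC3, 94th of 23890, and held AP-1 words at chr11:65683302-65683308 and chr11:65683386-65683392. No JUN region lay within 50 kb of FOSL1 in NCI-H660, in LNCaP under siNC or siFOXA1, or in FOXA2K265R cells. In NCI-H660 the place 15.5 kb upstream had no ATAC region, whereas the FOSL1 promoter did. FOSL1 encodes FRA-1, the FOS protein often made in invasive carcinoma cells.

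FOSL1 protein in PC3 under siNC had 9 regions at 5 members, JUN, JUND, FOSL1, FOSL2 and ATF3, with 17.3% of coding genes that near to one, and all 5 had one touching the promoter, against 2.05% of coding genes (2.63% of those with an accessible promoter). Those at JUN and JUND were centred 1.54 and 1.02 kb after the main start and only touched the promoter window. Neither overlapped the JUN ChIP region at that promoter. At its own gene FOSL1 scored 138 and 122 at the promoter places and 199 at 15.5 kb upstream, in each case on a JUN region. The FOSL2 and ATF3 promoters scored 78 and 63. Of the 9 regions, 7 overlapped a PC3 JUN region, against 66.9% of the FOSL1 list, and seen from JUN, 7 of 28 regions carried FOSL1, against 10.7% of the JUN list.

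The 2 FOSL1 regions without JUN lay inside gene bodies. At JUND the region was chr19:18391275-18391545, centred 1.02 kb after the main start, with a score of 181. At JUN it was chr1:59247442-59248923, 1482 bp wide where the median region of the list was 261 bp, and it covered 100% of the 993 bp JUN coding sequence. It scored 432 and was 216th of 3843. Unlike the other 8 FOSL1 regions it overlapped no PC3 ATAC region, and it did not reach the JUN ChIP region at the promoter.

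**Figure D3:**
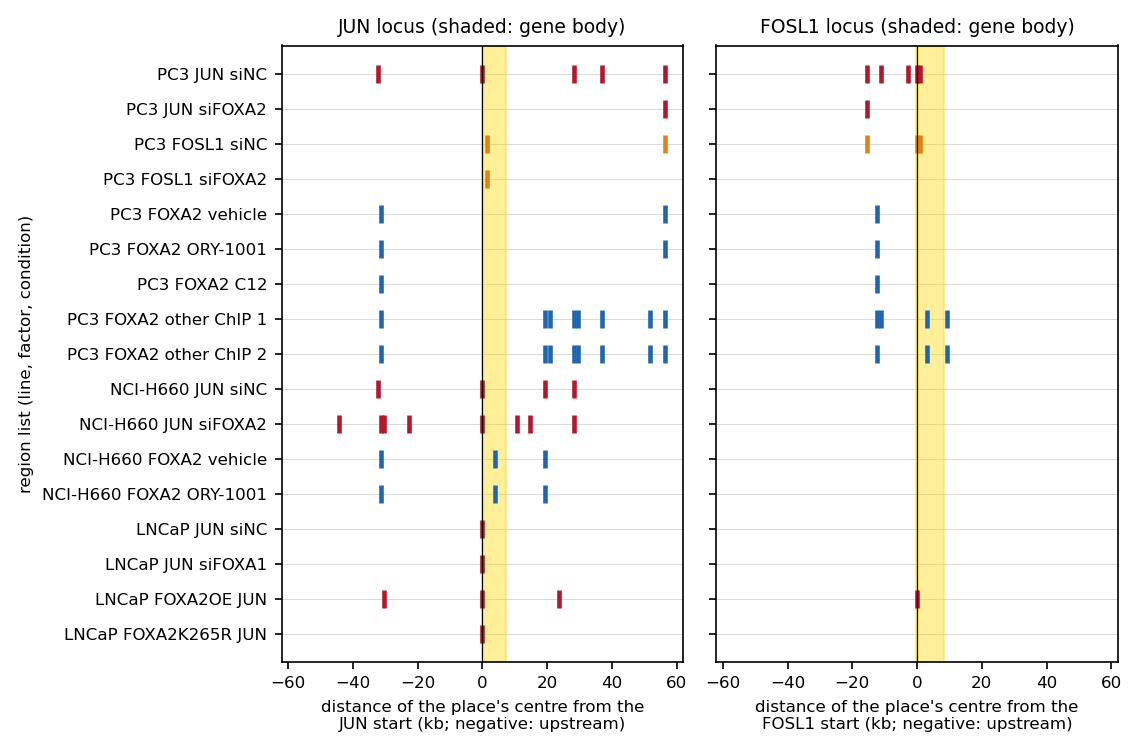
Places with a region at the JUN (left) and FOSL1 (right) loci in each list (rows), by distance of the place's centre from the main start in kb, negative upstream; red marks JUN, orange FOSL1 and blue FOXA2, and the gene body is shaded. JUN sits at the JUN start in 7 JUN lists, FOXA2 at 31.2 kb upstream of JUN in 7 lists, and all but 1 of the JUN marks at FOSL1 are from PC3.

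FOXA2 in PC3 under vehicle had 10 regions at 8 members, all but JUND and FOSB, with 54.1% of coding genes that near to one. Only JUNB had FOXA2 at its promoter, against 4.97% of coding genes (6.36% of those with an accessible promoter). All 10 were also in both other FOXA2 ChIPs (interval 72.2% to 100%), as were 90.4% of the whole vehicle list, so these places were found repeatedly. All 10 held a forkhead word within 100 bp of the centre, against 77.3% of the list. The highest-scoring one lay 31.2 kb upstream of JUN, at chr1:59280559-59281361. It scored 339 under vehicle, 1162 and 943 in the other FOXA2 ChIPs, and 359 in NCI-H660 under vehicle. The FOXA2 region at the JUNB promoter, chr19:12901935-12902362, scored 316, with 544 and 446 in the other FOXA2 ChIPs, and held the forkhead word TGTTTAC at chr19:12902134-12902140. JUNB encodes a JUN protein that often weakens activation by JUN. Of the JUN family promoters, FOXA2 in the vehicle list was thus at JUNB and JUN under siNC at JUN and JUND, while the other FOXA2 ChIPs also had FOXA2 at the JUND promoter, at scores of 126 and 45, above 48.2% and 9.98% of their lists. These 2 longer lists held 49 and 36 FOXA2 regions at the AP-1 loci, with at least 1 at each of the 10 members.

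Of the JUN regions at AP-1 loci under siNC, 6 of 28 in PC3 overlapped a FOXA2 region of the vehicle list, against 44.5% of the JUN list, and 3 of 24 did so in NCI-H660, against 23.2%. With the other FOXA2 ChIPs added, a comparison chosen after the values were seen, 13 of 28 in PC3 overlapped FOXA2, against 72.2%. The 7 added include the promoters of ATF3 (62 and 60), JUND (126 and 45) and ERCC1 (55 and 50). The differences from the whole list were not tested. The 6 places shared with the vehicle list were all distal. They lay 56.4 kb downstream of the JUN start (JUN 471, FOSL1 91, FOXA2 246), 18.6 kb upstream of FOSL2 (JUN 84, FOXA2 283), 41.4 and 12.4 kb upstream of ATF3 (JUN 139 and 244, FOXA2 176 and 101), 21.8 kb upstream of BATF3 (JUN 230, FOXA2 212) and 26.9 kb downstream of the MAFF start within TMEM184B (JUN 327, FOXA2 223). From the side of FOXA2, 6 of its 10 regions carried JUN, against 44.3% of its list.

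In NCI-H660 under vehicle FOXA2 had 7 regions at 5 members, JUN, JUND, FOS, ATF3 and MAFF, with 37.7% of coding genes that near to one. None lay at a member promoter, against 3.26% of coding genes. At JUN there were 3, scoring 359 at 31.2 kb upstream, 178 at 19.4 kb downstream and 36 at 3.93 kb downstream of the start. Only 2 of the 7, the JUN place upstream and the ATF3 place 41.4 kb upstream, were also in the PC3 vehicle list, against 22.5% of the NCI-H660 list. With the other FOXA2 ChIPs added 6 of the 7 were in a PC3 list, against 38.2%, so the share moved with the PC3 list used. The FOSL1 locus had no FOXA2 region in NCI-H660. It thus lacked FOXA2 and JUN there, while carrying FOXA2, JUN and FOSL1 in PC3.

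After siFOXA2 in PC3, JUN regions at the AP-1 loci went from 28 to 9, with none new, against 21.5% new in the whole siFOXA2 list. The 9 were all overlaps of earlier regions, so that 32.1% (interval 17.9% to 50.7%) of regions were kept, compared with 13.4% of the whole JUN list, which itself went from 23890 to 4081 regions. All regions at MAFF (4), JUNB (1) and BATF3 (1) were lost, and 4 of 5 at JUN, 4 of 5 at FOSL1 and 3 of 4 at ATF3. FOSB kept all 3, and FOSL2 kept 2 of 3. JUN remained at 2 member promoters, JUND and FOSL2, against 0.899% of coding genes (1.15% of those with an accessible promoter). The promoters of JUN, FOSL1, ATF3 and MAFF no longer had a region.

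The kept regions were mostly strong ones under siNC, with a median score above 92.3% of the list against 71.8% for the lost ones. Kept means overlap only. Under siFOXA2 each of the 9 sat lower within its own, shorter list, with a median score above 58% of it. All 9 came from the 21 regions that scored above the median of the siNC list, and none of the other 7 was kept. In the whole list 22.8% of regions above the median and 4.1% of the rest were kept. Score was no full guide: the place 11.3 kb upstream of FOSL1 (871), the IQCN promoter near JUND (600) and the FOSL1 promoter place (546) were lost, while the JUND promoter (262) and the VASP promoter 38.7 kb downstream of the FOSB start (277) were kept. The highest-scoring region of the 9 in both lists was that 15.5 kb upstream of FOSL1, 94th of 23890 under siNC and 264th of 4081 under siFOXA2. Cut to the same length, the 4081 top-scoring regions of each list, the lists shared 7 of 10 AP-1 regions (70%), against 47.4% of all, so the kept share moved with the length of the lists.

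Of the 6 JUN regions that overlapped a FOXA2 region of the PC3 vehicle list 1 was kept, 56.4 kb downstream of the JUN start (471 to 85), and of the other 22 8 were kept. In the whole list 18.3% and 9.42% were kept. Counting all 3 vehicle-treated FOXA2 lists, 3 of 13 regions with FOXA2 and 6 of 15 without were kept, against 15.4% and 8.17% of the whole list. The numbers at the AP-1 loci are small and the difference was not tested. Of the 9 kept regions 7 held an AP-1 word and 1 a forkhead word, and of the 19 lost ones 9 and 7. In the whole list 50.1% of kept and 49.4% of lost regions held an AP-1 word, and 32.3% and 45.2% a forkhead word. Regions that JUN also occupied in LNCaP under siNC were kept in 4 of 9 cases, against 58.5% of all such regions, and those it occupied in NCI-H660 in 5 of 12, against 35.3%.

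**Figure D4:**
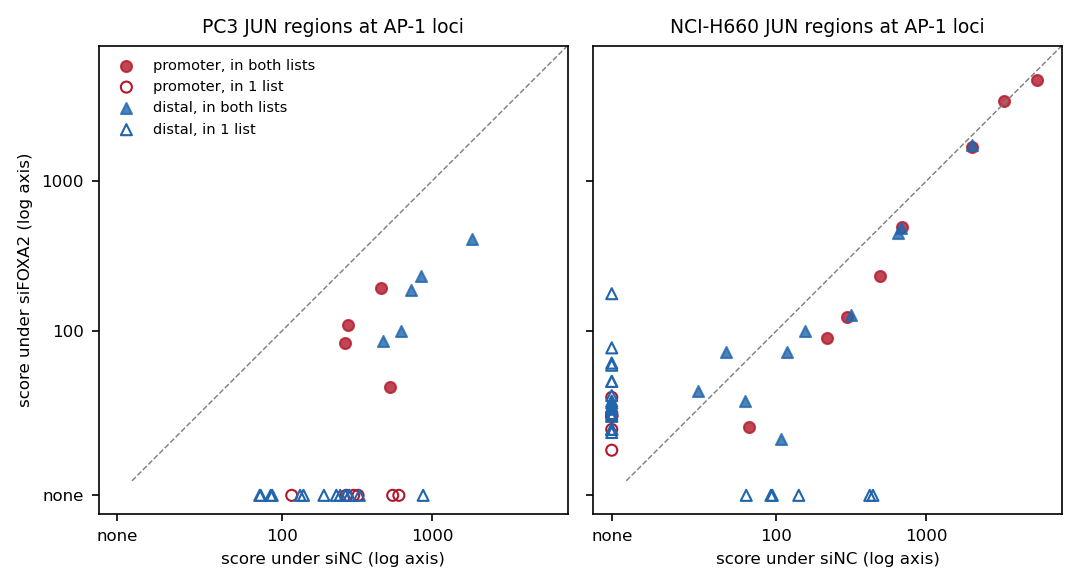
Score of each JUN region at the AP-1 loci under siNC (horizontal, log axis) and siFOXA2 (vertical, log axis) in PC3 (left) and NCI-H660 (right), with filled symbols for regions in both lists, open symbols at "none" for regions in 1 list, circles for promoters of coding genes, triangles for other places and a dashed line of equal score as a guide only, since scores also depend on unknown depth. In PC3 19 open symbols lie along the bottom, and in NCI-H660 6 lie along the bottom and 26 along the left edge.

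After siFOXA2 in NCI-H660 the JUN list grew instead, from 18401 to 59452 regions, and from 24 to 44 at the AP-1 loci. Of the 24, 18 were kept, 75% (interval 55.1% to 88.0%), against 48% of the whole list. Cut to the same length, the 18401 top-scoring regions of each list, 14 of 24 (58.3%) were shared, against 35.1% of all. All 8 at a promoter were kept, and 10 of the 16 others, with 70.2% and 41.6% of such regions kept in the whole list. The 6 lost regions included those shared with FOXA2 41.4 kb upstream of ATF3 (419) and 19.4 kb downstream of the JUN start (94), while the third shared place, 19.7 kb upstream of FOS, was kept (650 to 450). Thus 1 of 3 regions with FOXA2 and 17 of 21 without were kept, against 42.4% and 49.7% of the whole list. These numbers are small and the difference was not tested. JUN lay at 8 member promoters, the 6 of siNC plus FOS and BATF3, against 38.6% of coding genes (49.7% of those with an accessible promoter). The promoter regions of JUN, JUND, FOSL2 and ATF3 ranked 15th, 31st, 754th and 72nd of 18401 under siNC, and 7th, 16th, 576th and 53rd of 59452 under siFOXA2.

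Of the 44 NCI-H660 regions under siFOXA2, 26 were new, against 85.2% of the whole siFOXA2 list. The 26 new regions were weak. Their scores ran from 16 to 177 with a median of 29, and the highest, 177, lay 37.2 kb upstream of FOSL2. ATF3 gained 9, BATF3 7 and JUN 6, with some counted for both ATF3 and BATF3, and FOSB, FOSL1 and MAFF gained none. Of the 26, 13 overlapped accessible chromatin and 14 H3K4me2, and 1 held an AP-1 word, whereas all 24 siNC regions were accessible and 7 held one. In the whole list 21.1% of new regions were accessible, 18.6% overlapped H3K4me2 and 3.56% held an AP-1 word. Of the whole siNC list 86.0% of regions were accessible and 13.8% held an AP-1 word. All 6 member promoters with JUN under siNC kept it in NCI-H660, and 2 of 6 kept it in PC3. Of the 10 PC3 regions at the loci that lay at any coding promoter 4 were kept, against 7.93% in the whole list. Of the 18 other PC3 regions 5 were kept, against 13.9%. The difference between the lines is between single lists whose lengths moved in opposite directions, and it was not tested.

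FOSL1 in PC3 went from 3843 to 1538 regions after siFOXA2, and from 9 to 1 at the AP-1 loci, so that 11.1% (interval 1.99% to 43.5%) were kept against 6.9% of the list. None at the loci was new, against 81.5% of the whole siFOXA2 list. FOSL1 was lost from its own locus, with 3 of 3 regions, from JUND, FOSL2 and ATF3, and from the place 56.4 kb downstream of the JUN start. The highest-scoring one lost was that 15.5 kb upstream of FOSL1 (199). The only region left was the wide one over the JUN coding sequence, which went from 1482 bp and 216th of 3843 to 1562 bp, a score of 1148 and 12th of 1538. The kept share rests on this region alone, and the other 8 were lost. Only 2.41% of the siFOXA2 FOSL1 list held an AP-1 word near the centre, against 35.1% under siNC, and the wide JUN region held none there in either list.

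In LNCaP under siFOXA1, 7 of the 9 JUN regions were kept, 77.8% (interval 45.3% to 93.7%), against 49.6% of the list. None was new, against 38.6% of the whole siFOXA1 list. Kept were the promoters of JUN, JUND, FOSL2 and ATF3, the upstream ATF3 and FOSB places and the IQCN promoter near JUND. The 2 lost ones, 21.8 kb upstream of BATF3 and 23.8 kb upstream of MAFF, each held a forkhead word and an AP-1 word, whereas none of the 7 kept ones held a forkhead word. An AP-1 word lay in 4 of the 7 kept ones. In the whole list 46.6% of lost and 26.3% of kept regions held a forkhead word, and 36.4% and 14.25% an AP-1 word. Member promoters with JUN remained 4, against 0.652% of coding genes.

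FOXA2OE and FOXA2K265R cells had JUN lists of 23994 and 47505 regions, with 26 and 20 at the AP-1 loci. An AP-1 word lay within 100 bp of the centre in only 2.38% and 4.09% of these lists, against 25.4% in LNCaP under siNC. At the AP-1 loci 5 of the 26 and 6 of the 20 regions held one. JUN lay at 8 member promoters in FOXA2OE, all but JUNB and FOS, against 26.8% of coding genes, and at 6 in FOXA2K265R, JUN, JUND, FOSB, FOSL2, ATF3 and MAFF, against 40.7%. The promoters of MAFF and FOSB had JUN in both and not in LNCaP under siNC. Both lists came from other processing folders than the LNCaP knockdown lists and start at higher scores, so that folder and genotype cannot be told apart. The FOXA2OE FOXA2 list had no region at any of the 10 loci, but that list of 2500 may be a selection, so FOXA2 at these loci in FOXA2OE cells was not assessed.

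Under the LSD1 inhibitors FOXA2 at AP-1 loci was kept at most places in PC3. With ORY-1001 8 of 10 regions were kept, 80% (interval 49% to 94.3%), against 36.8% of the list, and with C12 7 of 10, 70% (interval 39.7% to 89.2%), against 29.6%. Cut to equal lengths by score, the lists shared 8 of 8 under ORY-1001, against 53.0% of the list, and 4 of 6 (66.7%, interval 30% to 90.3%) under C12, against 61.2%, so with C12 the whole-list share came close to that of the AP-1 loci. The compounds share their vehicle list and were given at different doses, so their values stand side by side without a comparison. The JUN place 31.2 kb upstream scored 339 under vehicle, 415 under ORY-1001 and 198 under C12. The JUNB promoter scored 316, 207 and 144 and the FOSL2 place 18.6 kb upstream 283, 191 and 55. These 3 places carried FOXA2 in every PC3 FOXA2 list, as did those 41.4 kb upstream of ATF3 (176, 136 and 123) and 21.8 kb upstream of BATF3 (212, 125 and 77). The place 12.4 kb upstream of ATF3 (101) was lost under both, the FOS place 15.4 kb downstream of the start (92) only under ORY-1001, and the places downstream of JUN (246) and in TMEM184B (223) only under C12. ORY-1001 had 1 new region, 79.3 kb upstream of the main ATF3 start with a score of 30, and C12 none. In the whole lists 35.6% of the ORY-1001 regions and 14.9% of the C12 regions were new.

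In NCI-H660 ORY-1001 kept 4 of 7 FOXA2 regions, 57.1% (interval 25.0% to 84.2%), against 68.4% of the list. All 3 at JUN stayed, at 31.2 kb upstream (359 to 403) and at 19.4 kb (178 to 136) and 3.93 kb (36 to 90) downstream of the start, as did the ATF3 place 41.4 kb upstream (192 to 259). Those near FOS (71), in the LSM4 promoter near JUND (31) and near MAFF (166) were lost, and a weak one appeared 28.1 kb downstream of the BATF3 start (25). In the whole ORY-1001 list of this line 29.1% of regions were new. The JUN place 31.2 kb upstream was in all 7 FOXA2 lists from PC3 and NCI-H660.

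**Figure D5:**
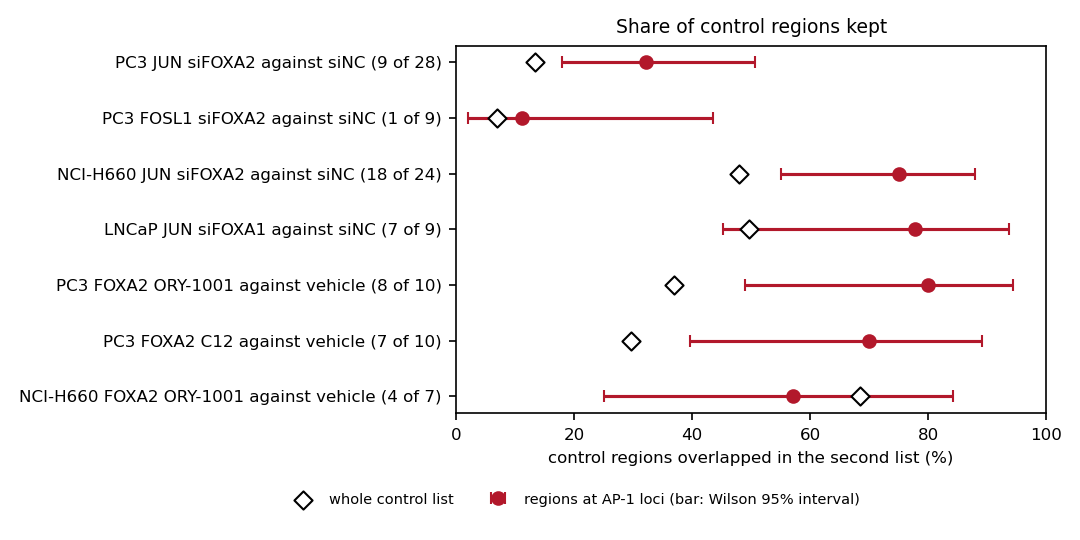
Percent of control regions overlapped in the second list of each contrast, for regions at the AP-1 loci (red points, with Wilson 95% intervals for counting error and the counts beside the contrast) and for the whole control list (open diamonds). The point lies above the whole-list value in 6 contrasts and below it for NCI-H660 ORY-1001. For PC3 FOSL1 the point rests on 1 kept region, the wide one over the JUN coding sequence. The bars are no test against the whole list, and both PC3 FOXA2 contrasts start from the same 10 regions.

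The genes of related lists were counted in the same way. Of 9 other AP-1 partners and relatives, JUN under siNC lay at 1 promoter in PC3 (MAFG), 2 in NCI-H660 (ATF7 and MAFG) and none in LNCaP. Of the 6 kinases of the JNK pathway, which phosphorylates JUN, it lay at none in PC3 and 3 in NCI-H660 (MAPK8, MAPK10 and MAP2K7). Of 9 other immediate-early genes it lay at 3 in PC3 (NR4A1, DUSP1 and KLF10), 2 in NCI-H660 (DUSP1 and KLF10) and 1 in LNCaP (DUSP1), and FOSL1 lay at DUSP1 and KLF10. Over all coding genes the JUN shares were 10.7% in PC3, 22.7% in NCI-H660 and 1.38% in LNCaP, so the counts for the partners were near those shares. After siFOXA2 in PC3, JUN was at 1 of these 24 promoters, KLF10.

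No other coding gene matched JUN in the presence of regions at the promoter over all 22 lists. The nearest were ENSG00000285133, CAMTA1 and JAK2, alike in 21 lists, of which the 11 with scores for both differed on average by 8.86, 9.52 and 14.0 percentage points in within-list rank. Among the members FOSL2 was alike in 20 lists, ATF3 in 19 and JUND in 18, and JUNB, with FOXA2 in place of JUN, in 8.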

How the data were processed

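The samples were ChIP-seq and ATAC-seq libraries that the authors made from 3 prostate cancer lines. Per the submitters' processing notes, reads were checked with FastQC 0.11.9, aligned to hg19 with BWA 0.7.17-r1188 and handled with SAMtools 1.9, and regions were called with MACS2 2.1.4. The settings, the control libraries and any pooling are not given in the sources used here. The authors deposited 22 lists of intervals, 20 of them with a score per region that is read here, from its range, as 10 times the −log10 of a q-value, which was not checked. No score was given for JUN in LNCaP under siNC or for FOXA2 in FOXA2OE cells. Minimum scores were 13 in most lists, 14 in the first of the other FOXA2 ChIPs, 30 for FOXA2OE JUN and 23 for FOXA2K265R JUN. No read totals are given, so depth is unknown.

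Gene models were GENCODE release 44 lifted to GRCh37. A region belonged to a member if it overlapped the gene body extended by 50 kb. Control regions sharing at least 1 bp with the other list of a contrast counted as kept and the remainder as lost, and regions of the other list that shared none counted as new. Overlapping regions of the 18 factor lists were merged into places. The overlap counts were tested on simulated data and against bedtools 2.31.1, and Wilson intervals were computed with statsmodels 0.14.6 in Python 3.11.15. Motifs were searched within 100 bp of region centres and from 250 bases before to 50 after the start of 1 transcript per gene. Groups followed the labels; no test between conditions was made because each group but 1 has 1 list. Members and gene lists were chosen with earlier results of these data known. Named regions were those at member promoters, the highest-scoring distal region per member and factor, and the highest-scoring kept, lost and new region per contrast, and further regions were named after their values were seen. Alternatives were a stricter overlap, other windows, a score minimum, equal list lengths, leaving out widely shared places and, added after the values were seen, all 3 vehicle-treated PC3 FOXA2 lists. No list holds columns of the authors' own comparisons. The sequence of 1 FOXA2 place is not reported here.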

Additional observations from a re-analysis of the deposited data

Results flagged for a closer look

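Under siFOXA2 the number of JUN regions at the AP-1 loci moved in opposite directions in the lines, by -19 in PC3 (28 to 9) and by 20 in NCI-H660 (24 to 44). With 1 list per condition the difference between the lines was not tested. The whole JUN lists moved the same ways, from 23890 to 4081 regions and from 18401 to 59452, and the part of list length in the numbers at the AP-1 loci was not tested.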

How the results depend on the processing

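Of 68 alternative values for 16 results, 58 stayed within the counting interval of the value reported or within 1.5 times of the count, and 10 moved. With both lists cut to the same number of top-scoring regions, the kept share at AP-1 loci rose to 70% (7 of 10) for PC3 JUN and to 100% (8 of 8) for PC3 FOXA2 under ORY-1001. With a window of 10 kb it rose to 100% for LNCaP JUN under siFOXA1 (6 of 6) and for NCI-H660 FOXA2 under ORY-1001 (2 of 2), and members with a region fell to 4 for LNCaP JUN under siNC, 2 for PC3 FOXA2 and 2 for NCI-H660 FOXA2. Requiring 50% overlap of both regions, 70% (7 of 10) of the PC3 vehicle FOXA2 regions were in both other FOXA2 ChIPs, whereas without either of these ChIPs the share ranged from 100% to 100%. With any of the 3 vehicle-treated PC3 FOXA2 lists in place of 1, chosen after seeing the data, the share of regions at AP-1 loci on PC3 FOXA2 rose from 21.4% to 46.4% for PC3 JUN under siNC and from 28.6% to 85.7% for NCI-H660 FOXA2, since more regions enter. Fewer regions enter under the narrower window and the equal lists by construction; the cause of the other change was not tested. Score-based alternatives were not run for LNCaP JUN under siNC, which has no scores. No paired analysis was possible because each condition has 1 list. Unknown depth limits every absent region: it was not detectable at the authors' threshold, not shown to be unbound.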
